A study of Mus musculus with 6 samples.

Results

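The BCL2 family decides whether the outer mitochondrial membrane stays intact or opens, and 10 of its genes were followed here in cultured mouse granulosa cells with and without cyclophosphamide. They are the rows of the deposited expression table whose gene name is Bcl2, Bcl2l1, Mcl1, Bax, Bak1, Bok, Bbc3, Pmaip1, Bcl2l11 or Bmf, which makes 10 of 54532 genes in the table, and all 10 passed the filter on low values that left 14751 genes. Granulosa cells are the somatic cells that surround the oocyte. They were labelled wild type, were grown in DMEM/F12 medium with fetal bovine serum, and were left untreated (3 libraries) or given cyclophosphamide, an alkylating chemotherapy drug, for 24 h after they had attached (3 libraries). A treatment label of the drug libraries names an intraperitoneal injection instead, and the account in the protocol, of cells dosed in culture, is followed here. The labels used here give no dose, strain or age and do not say whether replicates came from separate cultures, so p-values measure only the spread between these libraries, which may be technical. The series concerns ovarian failure after chemotherapy and loss of granulosa cells by ferroptosis, a form of death distinct from the apoptosis that this family governs.

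Pro-survival members (BCL2, BCL-XL from Bcl2l1, and MCL1) hold the effectors in check. The effectors BAX and BAK form pores in the outer mitochondrial membrane and let cytochrome c out to start the caspase cascade, and BOK is a related effector whose gene was first described in the ovary. BH3-only proteins (PUMA from Bbc3, NOXA from Pmaip1, BIM from Bcl2l11, and BMF) are sensors of stress that neutralise pro-survival proteins or engage effectors directly. In the ovary, granulosa cell apoptosis through this pathway is part of follicular atresia, the loss of follicles that do not ovulate.

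The libraries held 16458385 to 17607586 reads, recovered from the deposited FPKM (a read count divided by the gene's length and the library's size), and 20940 to 21920 genes were detected in each. Log2 values correlated at 0.989 to 0.991 within the untreated group, at 0.987 to 0.992 within the cyclophosphamide group and at 0.898 to 0.909 across groups. Of the granulosa markers, 8 of 10 passed the filter. Inha, an inhibin subunit, stood at 1984 ± 95.8 FPKM and Foxl2, a granulosa transcription factor, at 32.5 ± 1.75 FPKM in untreated libraries (SD, n = 3), while Amh and Cyp19a1 held 16 and 3 reads there. The summed level of the granulosa list was 2640 to 2789 FPKM in untreated and 1024 to 1327 FPKM in cyclophosphamide libraries, with 7 of 8 tested markers lower and Kitl higher. Summed leukocyte and macrophage markers lay at 3.12 to 3.37 and 8.05 to 8.998 FPKM, endothelial markers at 0.744 to 1.0004 and 2.08 to 2.67 FPKM, oocyte markers at 0.624 to 0.908 and 2.999 to 3.68 FPKM, and theca and stroma markers at 28.5 to 34.5 and 15.8 to 17.0 FPKM (untreated and cyclophosphamide). Surface epithelium markers summed to 106 to 119 and 50.8 to 73.8 FPKM, and smooth muscle and pericyte markers to 80.8 to 91.6 and 12.3 to 22.6 FPKM. The defining leukocyte gene Ptprc held 9 and 7 reads in each group of 3 libraries, C1qa 10 and 2, the endothelial gene Pecam1 20 and 37, the oocyte gene Zp3 0 and 7, and the theca gene Cyp17a1 1 and 8. Other markers of the same lists rose, namely Csf1r (310 to 1271 reads) and Cd68 (100 to 222) of the leukocyte and macrophage list, Esam (38 to 267) of the endothelial, Gdf9 (41 to 253) and Ooep (34 to 78) of the oocyte, Ptch1 (2988 to 5912) of the theca and stroma and Notch3 (716 to 2783) of the smooth muscle list. Markers that fell were Col1a1 (4690 to 1204 reads) and Col3a1 (6232 to 1843) of the theca and stroma list, and Acta2 (7640 to 871) and Myh11 (322 to 151) of the smooth muscle list. Krt8 (5085 to 2318), Krt18 (4424 to 2638) and Upk3b (124 to 13) of the surface epithelium list also fell, while Wt1 held 507 and 517 reads. The part of these shifts in the changes given below was not tested, and in bulk RNA fewer cells of a type and less RNA per cell cannot be told apart.

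Cyclophosphamide libraries differed from untreated ones at 9 of the 10 genes. Bbc3, Pmaip1, Bcl2l11, Bax and Bak1 rose, Mcl1, Bcl2, Bok and Bmf fell, and Bcl2l1 did not pass the test (limma on log2(FPKM + 0.1), Benjamini-Hochberg adjusted p under 0.05 over all tested genes). Change was common across the transcriptome, where 69.3% of tested genes passed, 33.3% higher and 35.9% lower, and the groups did not overlap in 73.4%, so that 9 of 10, although above that share, is in itself no result about the family. The members differ from one another in size and direction. The median log2 fold change of the 10 was 0.08, beside -0.02 over all genes tested, while single members ranged from -1.75 to 3.77. A log2 fold change of at least 1 was found for Pmaip1, Bbc3 and Bcl2l11 (10% of all tested genes rose this much) and one of at least 2 for Pmaip1 and Bbc3 (1.86%). Bok and Bmf had one of at most -1 (16.6%), and no member reached -2 (4.24%).

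**Figure D1:**
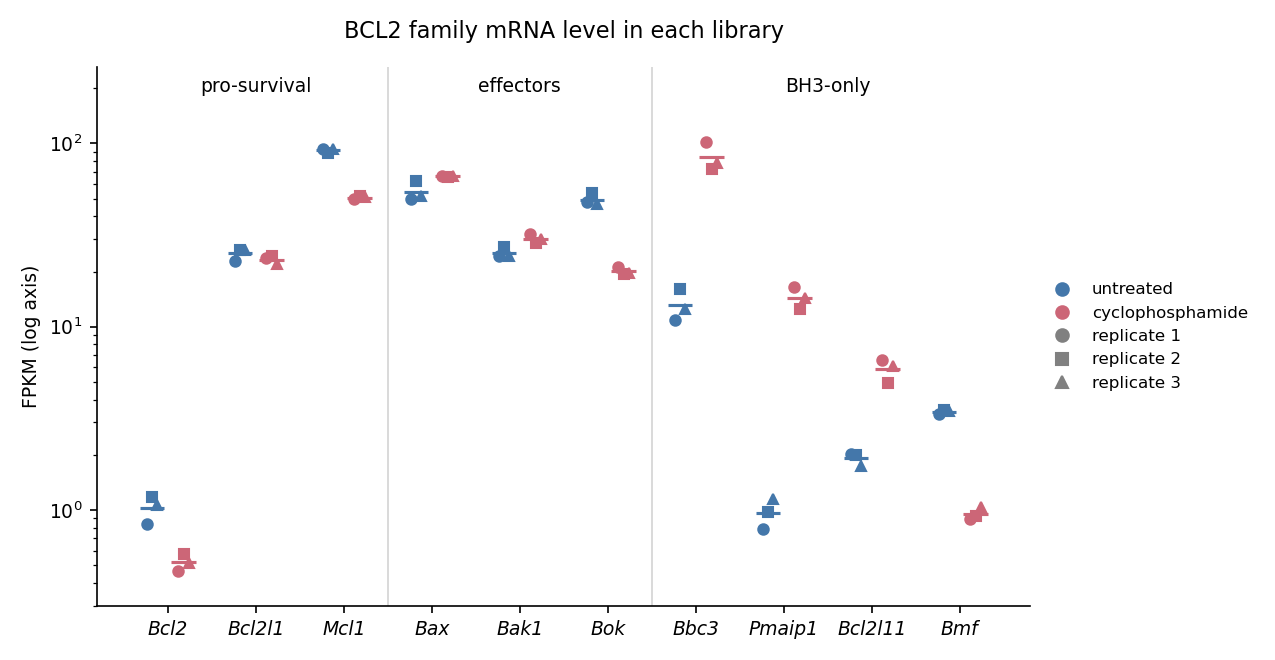
FPKM of the 10 genes in each library on a log axis, grouped by role, with untreated libraries in blue, cyclophosphamide libraries in red, 1 marker shape per replicate and a bar at each group's mean. Bbc3, Pmaip1 and Bcl2l11 sit far above their untreated values in all 3 cyclophosphamide libraries, Bmf, Bok and Mcl1 sit below, and only Bcl2l1 has overlapping groups.

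The BH3-only genes carried the largest changes and did not move one way. Promoter stretches are shown for 3 of them, of which 2 rose and 1 fell. The sequence was taken from RefSeq (GRCm38.p6), the 250 bases before an annotated start, 5′ to 3′ on the gene's strand. For Bbc3 and Bcl2l11 the stretch was chosen because it held GTAAACA, and for Bmf because it lies at the start of the gene. The stretches therefore give no comparison of genes that rose with one that fell. Capitals mark GTAAACA on either strand, the core that forkhead factors such as FOXO3 and FOXO1 bind. The Bbc3 stretch is chr7:16310011-16310260 (plus strand), that of Bcl2l11 chr2:128125788-128126037 (plus strand) and that of Bmf chr2:118549687-118549936 (minus strand). The Bbc3 stretch lies inside the gene, which begins at 16308393, before an internal annotated start. Those of Bcl2l11 and Bmf lie at the start of the gene.

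Bbc3: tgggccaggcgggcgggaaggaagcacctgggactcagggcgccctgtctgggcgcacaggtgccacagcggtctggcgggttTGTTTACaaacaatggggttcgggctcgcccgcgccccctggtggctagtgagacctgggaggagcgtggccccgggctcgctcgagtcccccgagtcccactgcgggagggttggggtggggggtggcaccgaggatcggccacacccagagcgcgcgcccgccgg
Bcl2l11: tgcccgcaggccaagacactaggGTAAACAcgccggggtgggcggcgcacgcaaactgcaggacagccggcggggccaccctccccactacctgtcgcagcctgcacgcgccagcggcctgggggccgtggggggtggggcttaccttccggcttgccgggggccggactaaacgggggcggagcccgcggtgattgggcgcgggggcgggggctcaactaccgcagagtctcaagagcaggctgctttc
Bmf: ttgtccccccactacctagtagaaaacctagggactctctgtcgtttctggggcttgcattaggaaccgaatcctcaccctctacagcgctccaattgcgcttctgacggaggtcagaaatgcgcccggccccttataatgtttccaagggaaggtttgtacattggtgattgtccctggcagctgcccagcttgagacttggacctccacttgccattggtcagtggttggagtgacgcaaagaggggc

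RefSeq windows reaching from 250 bases before to 50 bases after a start were held for 9 of the 10 genes, all but Pmaip1. They made 16 windows in all, since Bbc3, Bcl2l11, Bmf and Bcl2l1 each have more than 1 annotated start. The promoter of Pmaip1 was therefore not searched for any of the motifs below. Searched on both strands, GTAAACA was found in 2 of the 16, those of Bbc3 and Bcl2l11 printed above, where it begins 167 and 227 bases before the start, and in 3.65% of all 32851 windows. Bbc3 has 3 windows and Bcl2l11 has 2, and in each gene the motif was in 1 of them. None of the 3 windows of Bmf held it. The E-box CACGTG was found in 1 other Bbc3 window and in that of Bax, and in 7.15% of all windows, and the p53 half-site in that of Bax and in 1 of Bmf other than the stretch shown, against 8.36%. TGATGNAA, an element that ATF4 and C/EBP factors such as CHOP bind together, was in none of the 16 and in 3.97% of all windows, and TGACGTCA, the cyclic AMP response element, in none and 1.79%. These are matches of letters only.

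Pmaip1, whose product NOXA binds MCL1 and A1 selectively, was the member with the largest rise. Its FPKM was 0.786, 0.974 and 1.14 in untreated and 16.5, 12.4 and 14.4 in cyclophosphamide libraries, from 34 to 51 reads in the former and 590 to 717 in the latter. Every cyclophosphamide library stood far above the highest untreated one, and the group means differed 14.9-fold. The log2 fold change was 3.77 ± 0.16 (SE; limma, adjusted p = 1.1e-06), the largest but 20 of all rises. With a pseudocount of 1 in place of 0.1 it was 2.97. In the untreated cells Pmaip1 had the lowest mean of the 10 members, 0.967 FPKM, although its range overlapped that of Bcl2. After cyclophosphamide it ranked above Bcl2l11, Bmf and Bcl2.

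Bbc3 encodes PUMA, which binds every pro-survival member and is a classical target of p53. Its values were 10.9, 16.1 and 12.5 FPKM in untreated and 101, 72.3 and 78.4 FPKM in cyclophosphamide libraries. All 3 treated libraries stood above all untreated ones, and cyclophosphamide replicate 1 was the highest of its group by 1.40 times over replicate 2. The log2 fold change of 2.67 ± 0.17 (limma, adjusted p = 5.4e-06) ranked 102 from the top, and the ratio of means was 6.39. With a mean of 84.1 FPKM, Bbc3 went from the sixth level among the members to the first, above Mcl1 and Bax.

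Bcl2l11 encodes BIM, which can also engage BAX and BAK directly, and which dynein light chain 1 holds on the cytoskeleton. It stood at 2.01, 2.00 and 1.74 FPKM in untreated and at 6.56, 4.90 and 6.08 FPKM in cyclophosphamide libraries, again without overlap. The mean rose 3.05-fold, or 1.55 ± 0.14 on the log2 scale (limma, adjusted p = 2.8e-05). At 5.84 ± 0.85 FPKM after treatment it stood under Bbc3 and Pmaip1, whereas in untreated cells it had stood above Pmaip1.

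Bmf, whose product is tied to dynein light chain 2 and was described as a sensor of lost attachment, moved against the other BH3-only genes. Its level was 3.34, 3.49 and 3.47 FPKM in untreated and 0.890, 0.924 and 1.04 FPKM in cyclophosphamide libraries. The 3 values of each group lay close together, and the untreated mean was 3.61 times the treated one. The log2 fold change was -1.75 ± 0.12 (limma, adjusted p = 8.9e-06), the largest fall among the 10 with the pseudocount of 0.1. With a pseudocount of 1 it was -1.19, and that of Bok was -1.26. Untreated cells therefore held more Bmf than Bcl2l11 or Pmaip1 mRNA per length, and treated cells less.

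Among the effectors, Bax and Bak1 rose slightly while Bok fell. Bok had 47.9, 53.4 and 46.6 FPKM in untreated libraries, a range that overlaps that of Bax, and 21.1, 19.4 and 19.6 FPKM in cyclophosphamide libraries. The fall was 2.46-fold in the means, or -1.29 ± 0.07 on the log2 scale (limma, adjusted p = 3.5e-06). No untreated library came near a treated one.

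Bax had 49.7, 62.3 and 51.7 FPKM in untreated and 66.4, 65.7 and 66.1 FPKM in cyclophosphamide libraries. The treated values were nearly equal and lay just above untreated replicate 2, the highest of its group. Its log2 fold change was 0.28 ± 0.09 (limma, adjusted p = 0.022), a 1.21-fold rise of the mean. Bak1, whose product unlike BAX resides on mitochondria before activation, had 24.3, 27.3 and 24.3 FPKM against 32.1, 28.6 and 30.1 FPKM, a difference of 0.26 ± 0.07 on the log2 scale (limma, adjusted p = 0.014). Both calls were lost under upper-quartile scaling (Bax 0.17, adjusted p = 0.12; Bak1 0.14, adjusted p = 0.093) and without untreated replicate 1 (adjusted p = 0.080 and 0.051) or untreated replicate 3 (0.082 and 0.058). That of Bax was also lost without cyclophosphamide replicate 3 (0.059) and with no filter on low values (0.052).

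Of the pro-survival genes, Mcl1 and Bcl2 fell and Bcl2l1 did not pass the test. Mcl1, which encodes a short-lived protein, was the most abundant of the 10 in untreated cells, at 93.8, 89.1 and 93.8 FPKM, and had 49.7, 51.4 and 50.8 FPKM after cyclophosphamide. The 2 groups were each tight and far apart, with means 1.82-fold apart, which is -0.86 ± 0.06 on the log2 scale (limma, adjusted p = 7.7e-06).

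Bcl2l1 had 22.9, 26.1 and 26.3 FPKM in untreated and 23.6, 24.2 and 21.9 FPKM in cyclophosphamide libraries. The groups overlapped, and the log2 fold change of -0.11 ± 0.08 had a 95% confidence interval from -0.29 to 0.07 (limma, adjusted p = 0.24). Under upper-quartile scaling of the FPKM it was called lower (-0.22, adjusted p = 0.023). The gene gives BCL-XL and, by splicing, the shorter BCL-XS with the opposite action, and values per gene cannot separate them.

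Bcl2 was scarce throughout, at 0.835, 1.18 and 1.06 FPKM (125 to 188 reads) in untreated and 0.464, 0.573 and 0.512 FPKM (70 to 94 reads) in cyclophosphamide libraries. The groups did not overlap, and the log2 fold change was -0.86 ± 0.18 (limma, adjusted p = 0.0029), or -0.58 and -0.41 with a pseudocount of 0.5 and 1 in place of 0.1. Bcl2 spans 176 kb, which puts it in the tenth of tested genes with the longest span (at least 115.8 kb). That class had a median log2 fold change of -0.74 with 66.0% of its genes called lower, while the other 9 members lie in classes with medians from -0.03 to 0.08. The part of gene span in the fall of Bcl2 was not tested.

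**Figure D2:**
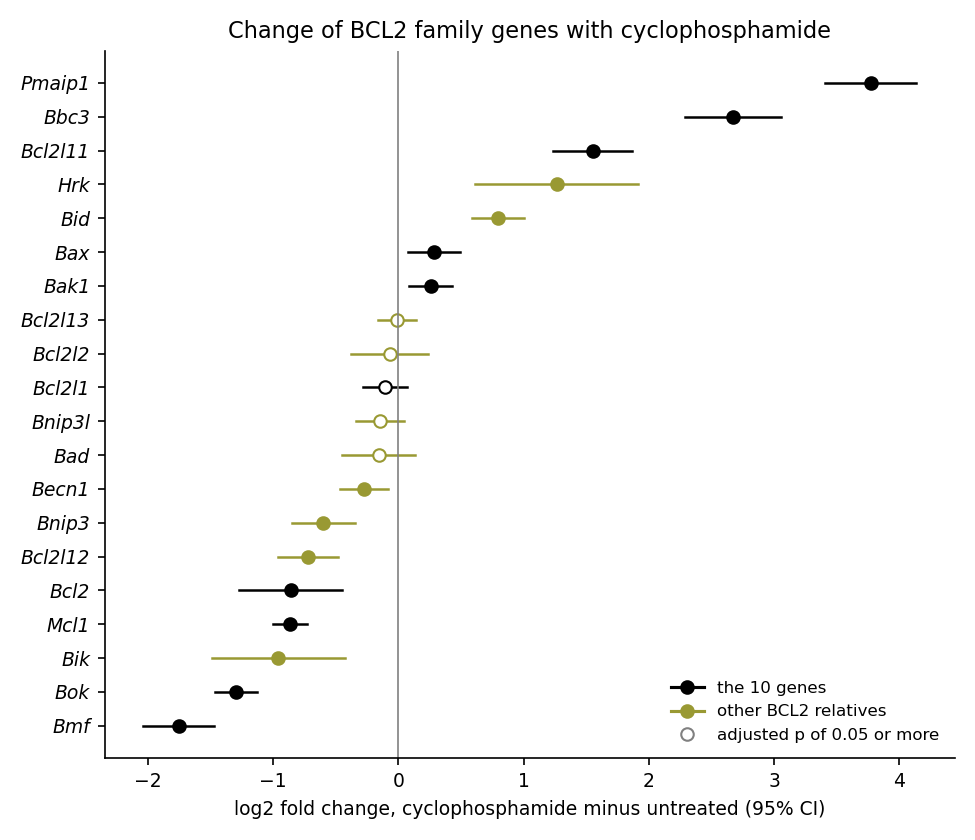
Log2 fold change of the 10 genes (black) and of 10 other tested BCL2 relatives (olive), cyclophosphamide minus untreated, with 95% confidence intervals from limma; open points had an adjusted p of 0.05 or more. Pmaip1, Bbc3 and Bcl2l11 stand at the top with 3.77, 2.67 and 1.55, and Bok and Bmf at the bottom with -1.29 and -1.75.

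The order of levels was rearranged. FPKM is scaled by gene length, so levels of different genes can be set side by side, as far as the length used (all annotated exons) fits the transcripts present. In untreated cells the order was Mcl1, Bax, Bok, Bak1, Bcl2l1, Bbc3, Bmf, Bcl2l11, Bcl2 and Pmaip1. The ranges over libraries overlapped between Bax and Bok, between Bak1 and Bcl2l1, and between Bcl2 and Pmaip1, so the order within those pairs is not settled by these libraries. In cyclophosphamide cells it was Bbc3, Bax, Mcl1, Bak1, Bcl2l1, Bok, Pmaip1, Bcl2l11, Bmf and Bcl2, with no overlap between neighbours.

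Summed by class, the 3 pro-survival genes held 116 to 121 FPKM in untreated and 73.2 to 76.3 FPKM in cyclophosphamide libraries. Mcl1 made up 77.9% ± 1.71 of this sum in untreated and 68.1% ± 1.13 in treated libraries (SD, n = 3), and Bcl2l1 21.2% ± 1.56 and 31.2% ± 1.14. The 4 BH3-only genes summed to 17.0 to 22.6 FPKM in untreated and 90.6 to 125 FPKM in treated libraries, of which Bbc3 was 67.2% ± 3.79 and 79.8% ± 1.21. Bmf went from 17.8% ± 2.14 to 0.922% ± 0.18 of the BH3-only sum, and Pmaip1 from 5.00% ± 0.93 to 13.7% ± 0.63. The effector sums, 122 to 143 and 114 to 120 FPKM, lay closer together, although without overlap, and Bok's share went from 38.2% ± 0.99 to 17.2% ± 0.40 as that of Bax went from 42.2% ± 1.42 to 56.8% ± 1.18. These sums are descriptions of mRNA and carry no test.

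**Figure D3:**
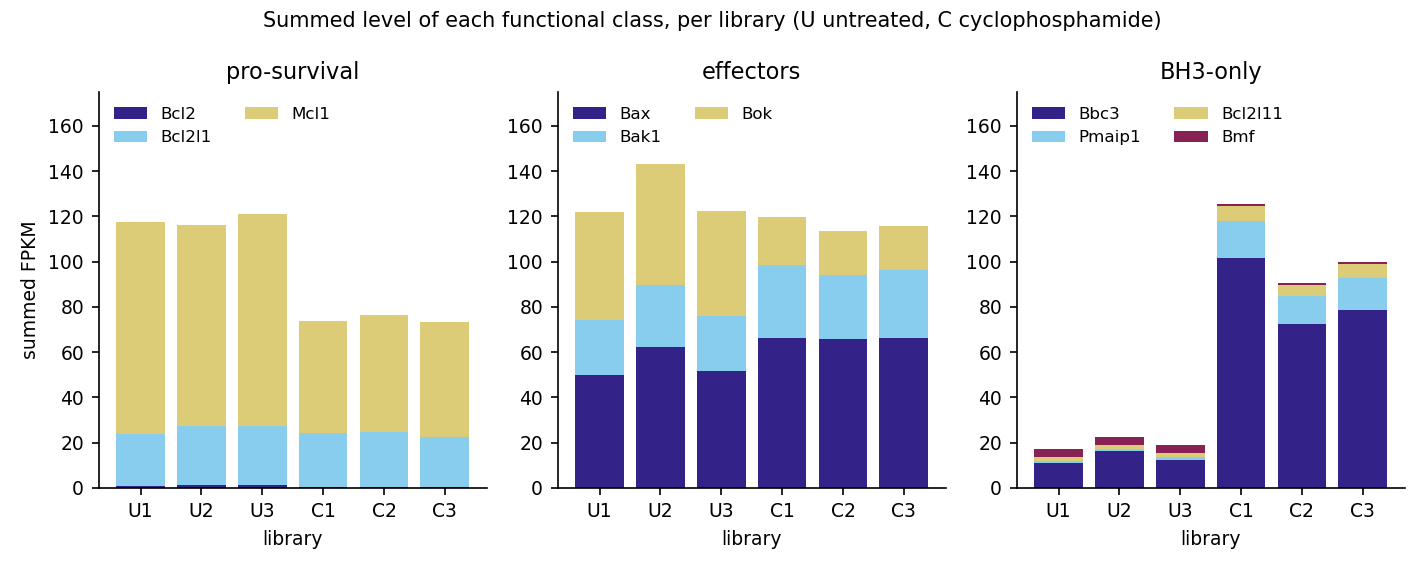
Stacked bars of FPKM for the 3 pro-survival, 3 effector and 4 BH3-only genes in each library (U untreated, C cyclophosphamide, numbered by replicate), on a common axis from 0. The BH3-only bars are at most 22.6 FPKM high in untreated and at least 90.6 FPKM high in treated libraries, mainly from Bbc3, and the pro-survival bars shrink through Mcl1.

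Ratios of a death gene to a survival gene were taken within each library. A plain ratio of FPKM does not depend on the scaling between libraries. Bax mRNA per Mcl1 mRNA was 0.530, 0.700 and 0.551 in untreated and 1.33, 1.28 and 1.30 in cyclophosphamide libraries, so that Bax was the rarer of the 2 in every untreated and the commoner in every treated library. Pmaip1 per Mcl1, a pair whose proteins bind each other, was 0.00838, 0.0109 and 0.0122 in untreated and 0.331, 0.242 and 0.283 in treated libraries. Mcl1 thus remained the more abundant of that pair in every library. The ratio of Bax to Bcl2 was 48.8 to 59.5 in untreated and 115 to 143 in treated libraries, and that of Bax to Bcl2l1 was 1.97 to 2.39 and 2.71 to 3.02. On the log2(FPKM + 0.1) scale the mean difference was 1.14 for Bax to Bcl2 and 0.39 for Bax to Bcl2l1. For Bax to Mcl1 it was 1.15 and for Pmaip1 to Mcl1 4.63. The added 0.1 makes the differences that involve Bcl2 or Pmaip1 smaller than those of the plain ratios. It also leaves the values on this scale somewhat dependent on the scaling between libraries. In each of the 4 ratios the groups did not overlap, which in an exact two-sided permutation test of 3 against 3 gives p = 0.10, the smallest value this design allows (0.10 also after adjustment over the 4).

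**Figure D4:**
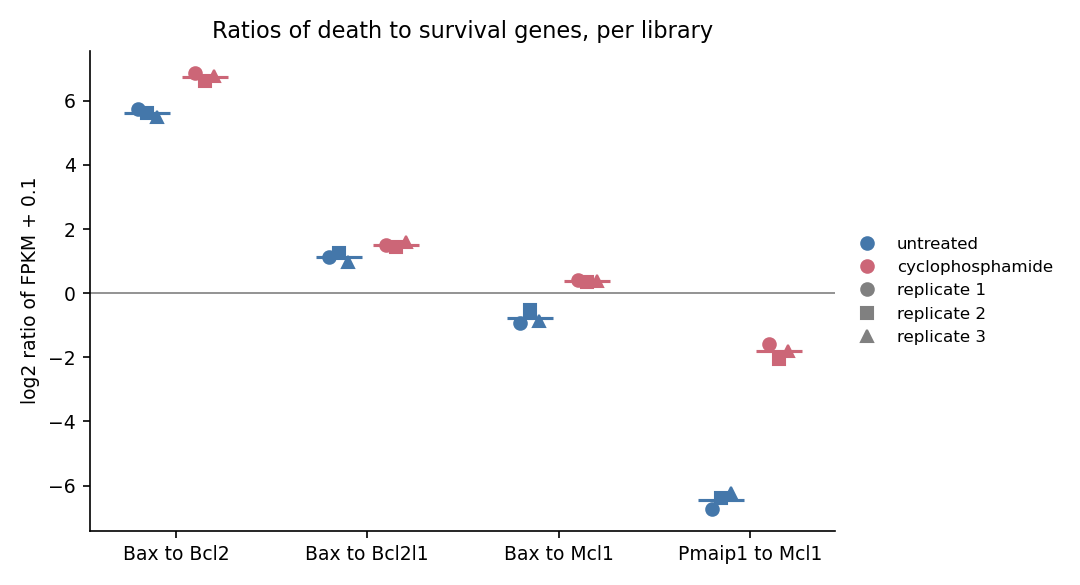
Log2 ratio of FPKM + 0.1 for 4 gene pairs in each library, untreated in blue and cyclophosphamide in red, with bars at the group means and a line at equal levels. Bax to Mcl1 crosses the line, from a mean of -0.76 to 0.38, and Pmaip1 to Mcl1 moves from -6.45 to -1.81.

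Replicates of the treated group were not equally far from the untreated ones. Cyclophosphamide replicate 1 had the highest value of its group for 6 members (Bax, Bak1, Bok, Bbc3, Pmaip1 and Bcl2l11) and the lowest for 3 (Bcl2, Mcl1 and Bmf). Without it, the log2 fold changes of Pmaip1, Bbc3 and Bcl2l11 were 3.67, 2.53 and 1.47, and all 9 calls were kept. The largest spread within the treated group was that of Bbc3, with a coefficient of variation of 18.2%, and the smallest that of Bax, at 0.473%.

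The members lie at separate loci, apart from the pair of genes on each of chromosomes 1 and 7 and the 3 on chromosome 2, which are also far apart. In the table's coordinates, which are those of GRCm38, Bbc3 (ENSMUSG00000002083) lies on chromosome 7 from 16308393 to 16318205, Pmaip1 (ENSMUSG00000024521) on chromosome 18 from 66458604 to 66465550, Bcl2l11 (ENSMUSG00000027381) on chromosome 2 from 128126038 to 128162547 and Bmf (ENSMUSG00000040093) on chromosome 2 from 118528757 to 118549687. Mcl1 (ENSMUSG00000038612) lies on chromosome 3 from 95658788 to 95663176, Bok (ENSMUSG00000026278) on chromosome 1 from 93685660 to 93695764 and Bax (ENSMUSG00000003873) on chromosome 7 from 45461697 to 45466898. Bcl2 (ENSMUSG00000057329) lies on chromosome 1 from 106538178 to 106714274, Bcl2l1 (ENSMUSG00000007659) on chromosome 2 from 152780668 to 152831728 and Bak1 (ENSMUSG00000057789) on chromosome 17 from 27019810 to 27029009. Each member is a protein-coding gene in the annotation. Next to Bbc3, Sae1 at 2.03 kb fell (-0.63 ± 0.06) and Ccdc9 at 21.6 kb rose (0.62 ± 0.13), so the genes on its 2 sides moved in opposite directions. Ftl1, the ferritin light chain gene 1.81 kb from Bax and on the same strand, rose by 1.53 ± 0.19, and Thap4, 6.17 kb from Bok, rose by 0.74 ± 0.08 while Bok fell. Bak1 overlaps Ggnbp1 on the other strand, which held 143 and 95 reads against 3089 and 3755 for Bak1, and without a stated strand setting reads of the overlap cannot be told apart. Bax overlaps Gm45808, a protein-coding gene on the same strand that held 0 reads in both groups. How the counting treated reads in that overlap is not known.

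Of 16 other BCL2 relatives listed, 10 passed the filter, 2 of these rose and 4 fell, beside 33.3% and 35.9% of all tested genes. Bid, the BH3-only protein that links death receptors to mitochondria, rose from 5.00 ± 0.33 to 8.75 ± 0.54 FPKM (SD, n = 3; log2 fold change 0.80 ± 0.09), and Hrk, a BH3-only gene known from neurons, from 18 to 84 reads in all (1.26 ± 0.28). The fold change of Hrk depends on the pseudocount at this low level: the ratio of its means was 4.50, and its log2 fold change was 2.53 in limma-voom on the recovered reads and 0.27 with a pseudocount of 1. Bik fell from 57 to 26 reads (-0.96 ± 0.23), Bcl2l12 by 0.72 on the log2 scale, Bnip3, a mitophagy receptor, by 0.60 and the autophagy gene Becn1 by 0.28. The remaining pro-survival relative with more than a trace of reads, Bcl2l2 (BCL-W), had a log2 fold change of -0.07 ± 0.13, and Bad, Bnip3l and Bcl2l13 had values of -0.16 ± 0.13, -0.15 ± 0.08 and -0.01 ± 0.07, none of which passed the test. Below the filter, Bcl2l10, a pro-survival relative known from oocytes, had 4 reads in untreated and 21 in cyclophosphamide libraries. Bcl2l15 had 0 and 25, and Bcl2l14 12 and 0. The near-identical A1 genes Bcl2a1a, Bcl2a1b and Bcl2a1d had at most 1 read each per group.

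Downstream of the mitochondrion, genes of the apoptosome and caspases moved in both directions. Of 13 tested, 4 rose and 5 fell, shares near those over all tested genes (33.3% higher and 35.9% lower), with a median log2 fold change of -0.04; without cyclophosphamide replicate 2 or 3 only 3 were called lower. Dffb, the nuclease that cuts DNA in apoptosis, rose by 1.26 ± 0.10 while Dffa, its inhibitor and chaperone, fell by 0.95 on the log2 scale, and Cycs, cytochrome c itself, fell by 0.49 (limma, adjusted p = 2.1e-05, 0.0012 and 0.0016). Of 5 inhibitor of apoptosis genes Birc2 rose (0.41 ± 0.08) and Birc5 (-1.94 ± 0.10) and Birc6 (-0.24 ± 0.06) fell. Birc5 encodes survivin, which also serves in mitosis.

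Partners of the members at membranes and in the cytosol were also followed, beside 33.3% of all tested genes called higher and 35.9% called lower; no test of any list against that background was made. Among 14 genes of mitochondrial and endoplasmic reticulum partners, 2 rose and 7 fell (median -0.14; none rose without untreated replicate 2 or under upper-quartile scaling), with the calcium channel genes Itpr1 (-1.74 ± 0.09) and Itpr2 (-1.23 ± 0.14) and the outer membrane channel Vdac2, which binds BAK (-0.71 ± 0.08), among those that fell. Of 9 anchors of BH3-only proteins 6 fell and 1 rose (median -0.48). Dynll1, the dynein light chain that binds BIM, fell (-0.94 ± 0.12). So did the 14-3-3 genes Ywhah (-0.89 ± 0.08) and Ywhab (-0.85 ± 0.10), whose products hold phosphorylated BAD. The gene that rose was the 14-3-3 gene Sfn (0.96 ± 0.22). Dynll2, the dynein light chain tied to BMF, did not pass the test (-0.11 ± 0.09). The median over all genes tested was -0.02. Of 7 genes for turnover of MCL1 and its partners 4 rose and 1 fell (median 0.32). Among those that rose were March5, a mitochondrial ubiquitin ligase (0.53 ± 0.10), Cul5 (0.40 ± 0.07) and Trim17 (1.003 ± 0.28, from 24 to 68 reads). The gene that fell was Huwe1 (-0.40 ± 0.11).

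Genes of transcription factors known to act on the family rose in 9 of 12 cases and fell in 2 (median 0.64), where 33.3% of all tested genes rose and 35.9% fell. The list was chosen with earlier results of these data known, so its direction is no independent evidence. Ddit3, which encodes CHOP, went from 7.07 ± 0.34 to 154 ± 1.97 FPKM (SD, n = 3) and Atf4 from 102 ± 4.26 to 407 ± 47.7 FPKM. The 2 forkhead genes parted, with Foxo3 at 20.2, 21.3 and 20.6 FPKM in untreated and 45.6, 38.3 and 40.3 FPKM in treated libraries, and Foxo1 at 22.9, 20.9 and 25.4 FPKM and 5.73, 4.94 and 5.08 FPKM. Their log2 fold changes were 0.99 ± 0.08 and -2.11 ± 0.10 (limma, adjusted p = 1.4e-05 and 1.5e-06), so that factors at like levels in untreated cells differed widely in treated ones. Trp53, the gene of p53, had a small rise of 0.32 ± 0.09 (limma, adjusted p = 0.0098), and its relative Trp63 went from 115 reads to 1. Jun, Myc, Bcl6, Rela and Stat3 rose by 1.35, 1.18, 0.75, 0.53 and 0.49, and E2f1 had a value of -0.21 ± 0.11 that did not pass.

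**Figure D5:**
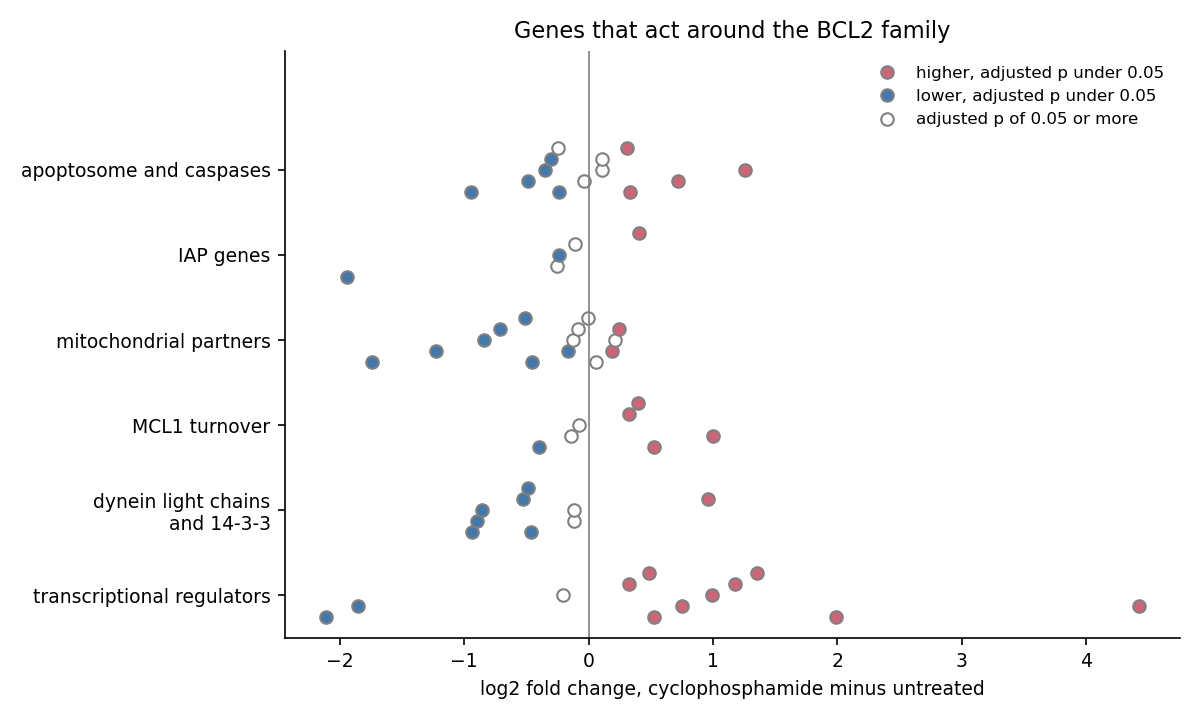
Log2 fold change (cyclophosphamide minus untreated) of each tested gene in 6 lists of genes that act around the BCL2 family; filled points passed the test (red higher, blue lower) and height within a row only separates points. Transcriptional regulators lie mainly to the right, with Ddit3 at 4.42, and the dynein light chain and 14-3-3 genes mainly to the left.

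The genes whose 6 library values were most like those of Pmaip1, each measured from its own untreated mean, were Acot2, Atf3 and Vegfa, with a root mean square difference of 0.16, 0.17 and 0.17 on the log2 scale among 10749 protein-coding genes. For Bmf they were Npr3, Vill and Mical2, at 0.04, 0.06 and 0.06. Both sets follow from the size of the change and the pattern over replicates in 6 libraries alone.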

How the data were processed

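Polyadenylated RNA of 3 untreated and 3 cyclophosphamide libraries was sequenced; the submitters' processing notes list CASAVA, HISAT2 (version 2.0.5) and the build GRCm39. No source used here names the counting tool, the strand setting or the annotation. The deposited values are FPKM made by the authors, although the table is named as raw counts: they are not whole, and times gene length they are whole multiples of 1 step per library (100% of values, tolerance 0.01), which gave the reads. The library size implied by the values lay between 0.975 and 1.04 of the reads summed over genes, so the authors scaled the libraries by a method that is not stated here. Of 54409 gene IDs shared with GENCODE M21 (GRCm38), 98.3% had the same start and end, so coordinates are read as GRCm38. The lengths of 9 of the 10 members equal the union of their M21 exons; that of Pmaip1 is 2646 against 2732 bases.

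The filter kept 14751 genes, those reaching about 10 reads in 3 or more libraries and 15 in total. They were tested two-sided on log2(FPKM + 0.1) with limma (version 3.58.1, R version 4.3.3), its variance prior following mean expression, with Benjamini-Hochberg adjustment over all genes and a threshold of 0.05. Fold changes are on that scale, where genes of low level appear to change less than they do. The fit was tested on simulated data in which few genes changed. With 69.3% of tested genes called here, that test does not show how the fit behaves under such wide change. Levels are mean ± SD and log2 fold changes are ± SE. Ratios were compared by an exact permutation test. The members and lists were chosen with earlier results of these data known. All members are named. From each list the called genes with the 3 smallest p-values are named, and any BCL2 relative or transcriptional regulator. Huwe1, Sfn and Dynll2 were added after their values were seen. Cell type markers and neighbouring genes named beside the members were picked after their values were seen. The table gives March5 as a date, so that gene was matched by its ID; Ddit3 has a further ID with 0 reads. Alternatives were other pseudocounts, scalings, filters, limma-voom on the reads, a replicate block and leaving out each library.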

Additional observations from a re-analysis of the deposited data

How the results depend on the processing

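Over all alternatives the direction of each of the 10 members was kept, and Mcl1, Bcl2, Bok, Bmf, Bbc3, Pmaip1 and Bcl2l11 remained called in every setting that tested them; Bcl2 has no value with a filter at a mean of 1 FPKM. The 5 members called higher were 3 under upper-quartile scaling of the FPKM, 3 under upper-quartile scaling of the recovered reads (chosen after seeing the data) and 3 to 5 when 1 library was left out; the calls lost were those of Bax and Bak1. Upper-quartile scaling of the FPKM moved the median of all genes by -0.11. The cause of these losses was not tested. Leaving out 1 library gave Bcl2l13 values from -0.0589 to 0.0178 (0.0151 without cyclophosphamide replicate 3) and Bcl2l2 values from -0.1996 to 0.0634, above 0 without cyclophosphamide replicate 1; Bcl2l13 was 0.0381 in limma-voom, 0.0144 with median-of-ratios scaling and 0.0378 with scaling to total reads. None of these passed the test. List counts that moved by over 1.5 times were, from the lowest to the highest over all settings, caspase genes called lower (3 to 5, given as 5), inhibitors of apoptosis called lower (2 to 4, given as 2), MCL1 turnover genes called higher (2 to 4, given as 4) and lower (1 to 2, given as 1), mitochondrial partners called higher (0 to 3, given as 2), relatives called higher (1 to 4, given as 2) and regulators called lower (1 to 3, given as 2). With 2 mitochondrial partners called higher, the 0 came under both upper-quartile scalings and without untreated replicate 2, and the 3 lower caspase genes came without cyclophosphamide replicate 2 or 3. Replicate numbers did not pair the libraries (correlation of deviations -0.08, 0.01 and -0.03). With the replicate block, 4767 genes were called higher and 5143 lower, beside 4919 and 5300 without it, and 5 and 4 members, as without it. The quasi-likelihood and negative binomial count tests planned on recovered reads were not run, since the deposited unit is FPKM. Depth limits the called genes with few reads over the 3 libraries of their lower group, among them Trp63 with 1, Hrk with 18, Trim17 with 24, Bik with 26 and, of the members, Pmaip1 with 130.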
